A study of Mus musculus with 18 samples.

Results

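The genes described here are Kit, Kitl, Foxo3, Tsc1, Tsc2, Cdkn1b, Akt1, Pdpk1 and Serpine2, a set of 9 genes named for the control of oocyte dormancy by KIT, PI3K and mTOR signalling. They were found by the gene name printed in the scanner files, which held 27218 different names. Of 41174 non-control probes, 19 carried one of these names, and each probe was kept apart because probes of a gene, those of Tsc1 above all, did not give the same values. All 19 were among the 29203 probes that were well above background on every array of at least 1 group and were therefore tested.

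The study profiled whole ovaries (XX gonads) of female mice that were Elavl2 knockout (KO) or wild type (WT) at E15.5 and E17.5 of gestation and at P0, the day of birth. The product of Elavl2 belongs to the ELAV family of proteins that bind RNA. The 6 groups were E15.5 KO, E15.5 WT, E17.5 KO, E17.5 WT, P0 KO and P0 WT, each with 3 arrays, 18 in all, and the labels give the sample type of every one as mixed. Neither the allele nor the strain is stated in the sources used here, and nothing says that samples came from separate animals, so the spread behind the p-values is that between these arrays and may be technical.

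KIT ligand, made by the somatic cells of the ovary, binds the receptor tyrosine kinase KIT on the oocyte surface. KIT recruits PI3K, whose lipid product brings the kinases PDPK1 and AKT1 together at the membrane, and AKT in turn inactivates the transcription factor FOXO3 and the TSC1-TSC2 complex. FOXO3, TSC1, TSC2 and the CDK inhibitor encoded by Cdkn1b (p27) are known in mouse as brakes that hold primordial follicles dormant, and the TSC complex works by restraining mTOR complex 1. Serpine2 encodes protease nexin-1, a secreted inhibitor of serine proteases.

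Values below are log2 signals relative to the 75th percentile of the same array, so that 0 is the 75th percentile and a difference of 1 is a factor of 2 in signal. A level of one probe is not set against that of another. An error after ± is a standard deviation over 3 arrays where SD is written and a standard error of the fitted difference where SE is written, and adjusted p is the Benjamini-Hochberg value over all 29203 probes in limma.

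The probes described below included the following 60-base sequences, copied from the scanner files with their mm9 positions and given 5′ to 3′, the direction of the transcript. They are shown because a result on a probe is a result on what its oligonucleotide captures. For Kitl and Akt1 the dimmer probe is shown, and its difference between genotypes was not called at any stage. The P0 rises called for Kitl and Akt1 came from the brighter probes A_51_P133936 and A_51_P237553, whose sequences are not shown. The first pair lies 429 bases apart (start to start) in Tsc1.
Tsc1 A_51_P155018, chr2:28542631-28542690, plus strand: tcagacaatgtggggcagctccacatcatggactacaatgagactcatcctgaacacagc
Tsc1 A_52_P267779, chr2:28542202-28542261, plus strand: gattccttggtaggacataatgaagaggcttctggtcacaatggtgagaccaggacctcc
Kitl A_52_P572571, chr10:99539380-99539439, plus strand: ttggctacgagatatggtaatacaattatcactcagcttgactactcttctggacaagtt
Cdkn1b A_51_P169173, chr6:134871103-134871161, plus strand: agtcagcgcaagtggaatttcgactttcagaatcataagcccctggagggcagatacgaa
Pdpk1 A_52_P619138, chr17:24216513-24216572, minus strand: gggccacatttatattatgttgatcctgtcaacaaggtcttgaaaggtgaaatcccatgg
Akt1 A_52_P418014, chr12:113900509-113909775, minus strand: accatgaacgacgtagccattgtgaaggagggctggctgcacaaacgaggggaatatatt
Serpine2 A_51_P268094, chr1:79793476-79796093, minus strand: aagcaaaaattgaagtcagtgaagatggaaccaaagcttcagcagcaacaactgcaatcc
The Akt1 and Serpine2 oligonucleotides span 9267 and 2618 bases of the genome, more than their own length of 60. Kit (A_51_P355906), the brighter Kitl probe (A_51_P133936), the brighter Akt1 probe (A_51_P237553) and Cdkn1b A_51_P169173 were each printed at 10 spots per array. The other 15 probes were printed once.

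Between 62.5% and 75.1% of probes were well above background on an array, and precision is limited by having 3 arrays in each group. Scan run A held the E15.5 arrays together with replicate 3 of E17.5 KO and replicate 3 of E17.5 WT, and run B held the rest. The 18 arrays lay on 7 slides, and at E15.5 and at P0 the WT arrays shared a slide without any KO array. At E17.5 replicates 1 and 2 of KO and of WT lay on different slides, and replicate 3 of both shared a slide. Genotype and slide can therefore not be told apart at E15.5 and P0, and at E17.5 only within replicate 3. All 8 germ cell markers and all 9 pregranulosa cell markers were well above background on every array of every group. Elavl2 averaged 2.00 ± 0.12 in KO and 2.11 ± 0.16 in WT at E15.5, 2.65 ± 0.41 in KO and 3.51 ± 0.14 in WT at E17.5, and 3.16 ± 0.20 in KO and 4.52 ± 0.06 in WT at P0 (SD, n = 3 each, brighter probe). Which part of the gene was deleted is not given, so that these values are no check on genotype.

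Of the 19 probes, 1 fell and 0 rose in KO at E15.5, where 2.06% of all probes tested were called, 1.13% lower and 0.935% higher in KO. At E17.5, 3 fell and 0 rose, against 4.81% of all probes called, 3.69% lower and 1.12% higher. At P0, 3 fell and 3 rose, a count to be read against 32.5% of all probes called, 16.0% lower and 16.5% higher, and 1 of those that rose (Foxo3 A_52_P373852) was not well above background on any P0 array. KO and WT arrays did not overlap for 5 (E15.5), 5 (E17.5) and 9 (P0) of the 19 probes, against 24.3%, 18.7% and 46.2% of all probes tested. The median difference over the 19 probes was 0.05 (E15.5), -0.22 (E17.5) and 0.09 (P0), beside -0.00, 0.03 and -0.02 over all probes tested.

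**Figure D1:**
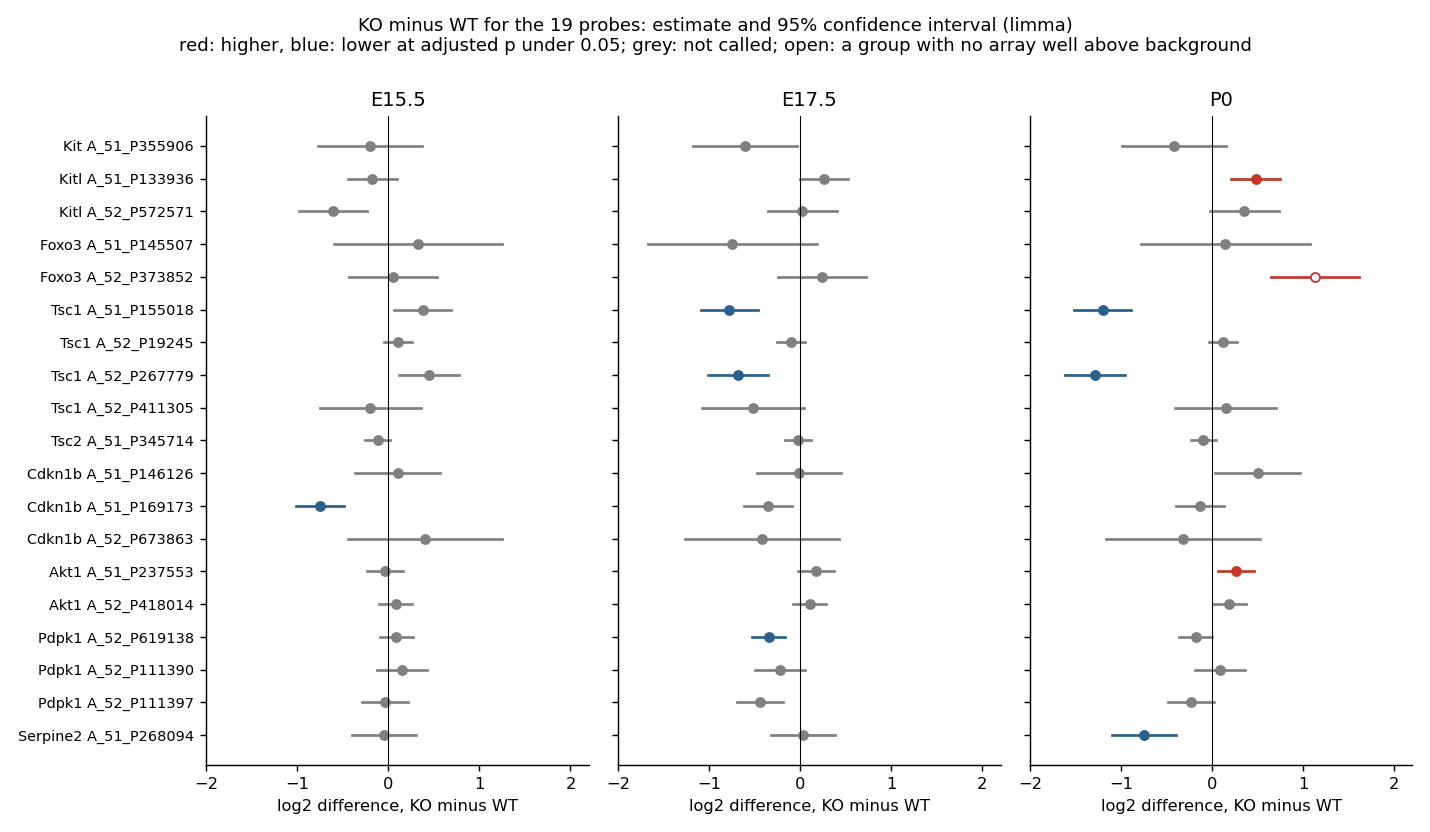
Difference between KO and WT (log2, horizontal axis) of each of the 19 probes at E15.5, E17.5 and P0, with points for the limma estimate and bars for the 95% confidence interval; red is higher and blue lower in KO at an adjusted p under 0.05, grey is not called. Both Tsc1 probes that lie 429 bases apart moved from above 0 at E15.5 to below 0 at E17.5 and P0, and the open symbol is the Foxo3 probe that was not well above background in either P0 group.

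Kit, which encodes the receptor, rose steeply with age in both genotypes, and no difference between KO and WT was called at any stage. Its KO arrays read -0.70, -1.08 and -0.39 at E15.5, 2.02, 1.06 and 0.99 at E17.5, and 2.92, 2.60 and 3.11 at P0. Its WT arrays read -0.58, -0.70 and -0.28 at E15.5, 1.82, 1.84 and 2.23 at E17.5, and 3.45, 3.37 and 3.05 at P0. At E17.5 replicates 2 and 3 of KO lay below all WT arrays and replicate 1 lay among them, while at E15.5 and P0 the genotypes overlapped.

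The difference in Kit was -0.20 (95% confidence interval -0.77 to 0.37) at E15.5, -0.61 (-1.18 to -0.04, adjusted p = 0.20) at E17.5 and -0.42 (-0.99 to 0.15, adjusted p = 0.244) at P0. The E17.5 value rested on KO replicate 1: without that array it was -0.97 (SE 0.22, adjusted p = 0.0245). Within run A, which held 1 E17.5 array of each genotype, it was -1.25, and within run B -0.29.

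The summed level of the 8 germ cell markers, in multiples of the 75th percentile, was 125, 77.4 and 68.9 in E17.5 KO replicates 1, 2 and 3, against 109 to 136 in E17.5 WT arrays. The sum was therefore high in the same KO array in which Kit was high. Mast cells also carry KIT, and 5 mast cell markers summed to 32.3 to 37.9 in E17.5 KO and 16.3 to 25.5 in E17.5 WT arrays, with Ms4a2 above background on 1 KO array and on 0 WT arrays. The part of either cell type in the Kit values was not tested, and in whole ovaries fewer cells of a type and less RNA per cell cannot be told apart.

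In the course of development, 7 of the 19 probes were called between E17.5 and E15.5 in KO (21.6% of all probes tested) and 6 in WT (24.9%). Between P0 and E17.5, 6 were called in KO (37.0%) and 6 in WT (40.8%). Kit had the largest called rise among them: E17.5 exceeded E15.5 by 2.03 ± 0.32 in KO (4.08-fold, adjusted p = 0.000744) and by 2.44 ± 0.32 in WT (5.41-fold, adjusted p = 0.000254). With the KO arrays of these stages fitted alone, the KO step was 1.71 and was not called (adjusted p = 0.125). P0 exceeded E17.5 by a further 1.49 ± 0.28 in KO (2.81-fold, adjusted p = 0.00123) and 1.30 ± 0.28 in WT (2.46-fold, adjusted p = 0.00276; SE in each case). Since all E15.5 arrays were of run A, every step from E15.5 to E17.5 rests, through the run term, on the 2 E17.5 arrays of replicate 3.

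Kitl, the ligand gene, ran the other way with age and was higher in KO at birth. The brighter probe, A_51_P133936, read 3.00, 3.30 and 3.10 in KO and 3.37, 3.37 and 3.19 in WT at E15.5. At E17.5 it read 3.04, 3.30 and 3.28 in KO and 2.90, 3.03 and 2.91 in WT. At P0 it read 2.21, 2.58 and 2.44 in KO and 1.84, 1.81 and 2.14 in WT. The genotypes overlapped at E15.5, and every KO array lay above every WT array at E17.5 and at P0.

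The P0 difference of 0.48 ± 0.12 (SE) was a rise of 1.39-fold (adjusted p = 0.0106). The values were -0.18 (95% confidence interval -0.44 to 0.09) at E15.5 and 0.26 (-0.00 to 0.53, adjusted p = 0.234) at E17.5, and neither was called. Fitted on the P0 arrays alone the rise was the same in size but missed the threshold, at an adjusted p of 0.053, the highest of a range from 0.00438 over the alternatives. Between E17.5 and P0 this probe fell by 0.79 in KO (SE 0.13, adjusted p = 0.000538) and by 1.00 in WT (SE 0.13, adjusted p = 9.7e-05).

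The second Kitl probe, A_52_P572571, lies 23101 bases away and is the one whose sequence is shown above. At E15.5 it read -1.68, -1.37 and -1.76 in KO and -0.95, -0.91 and -1.13 in WT, without overlap, a difference of -0.61 (95% confidence interval -0.98 to -0.23) that was not called (adjusted p = 0.0917). It was called when P0 WT replicate 2 was left out (-0.61, adjusted p = 0.0496) and with normexp background correction and quantile normalization (-0.49, adjusted p = 0.0351). At P0 its arrays overlapped, and the difference of 0.35 (-0.02 to 0.73, adjusted p = 0.133) had the sign of the brighter probe. Without P0 WT replicate 3 that value was 0.51 (adjusted p = 0.0407). In WT this probe fell by 0.93 between E15.5 and E17.5 (SE 0.21, adjusted p = 0.0074), a step for which the brighter probe gave -0.35 (adjusted p = 0.111, or 0.0411 without the run term and 0.0314 with -0.55 under median scaling). Without E17.5 WT replicate 3 the call on the second probe ended (-0.81, adjusted p = 0.166).

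The 9 pregranulosa cell markers, which label the somatic cells around the oocyte, summed to 109 to 126 in P0 KO and 89.4 to 102 in P0 WT arrays, and to 118 to 134 in E17.5 KO and 108 to 115 in E17.5 WT arrays. These sums did not overlap between genotypes at either stage, as was the case for the brighter Kitl probe. That pattern was not particular to pregranulosa markers. Macrophage and mast cell marker sums also lay higher in KO without overlap at both stages. At P0 the macrophage sums were 2.27 to 2.37 in KO and 1.995 to 2.15 in WT, and the mast cell sums 16.9 to 21.2 in KO and 14.1 to 16.4 in WT. Endothelial sums did so at P0 and red cell sums at E17.5 only, and stroma sums overlapped at both stages. The pregranulosa sums rest mostly on Amhr2 and Rspo1, the brightest of the list, and not every pregranulosa marker had that sign. Foxl2 averaged -2.136 in P0 KO and -2.003 in P0 WT, and -2.62 in E17.5 KO and -2.41 in E17.5 WT. Fst averaged 1.26 in P0 KO and 1.61 in P0 WT, and 0.86 in E17.5 KO and 1.36 in E17.5 WT. The part of these cell types in the Kitl result was not tested.

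**Figure D2:**
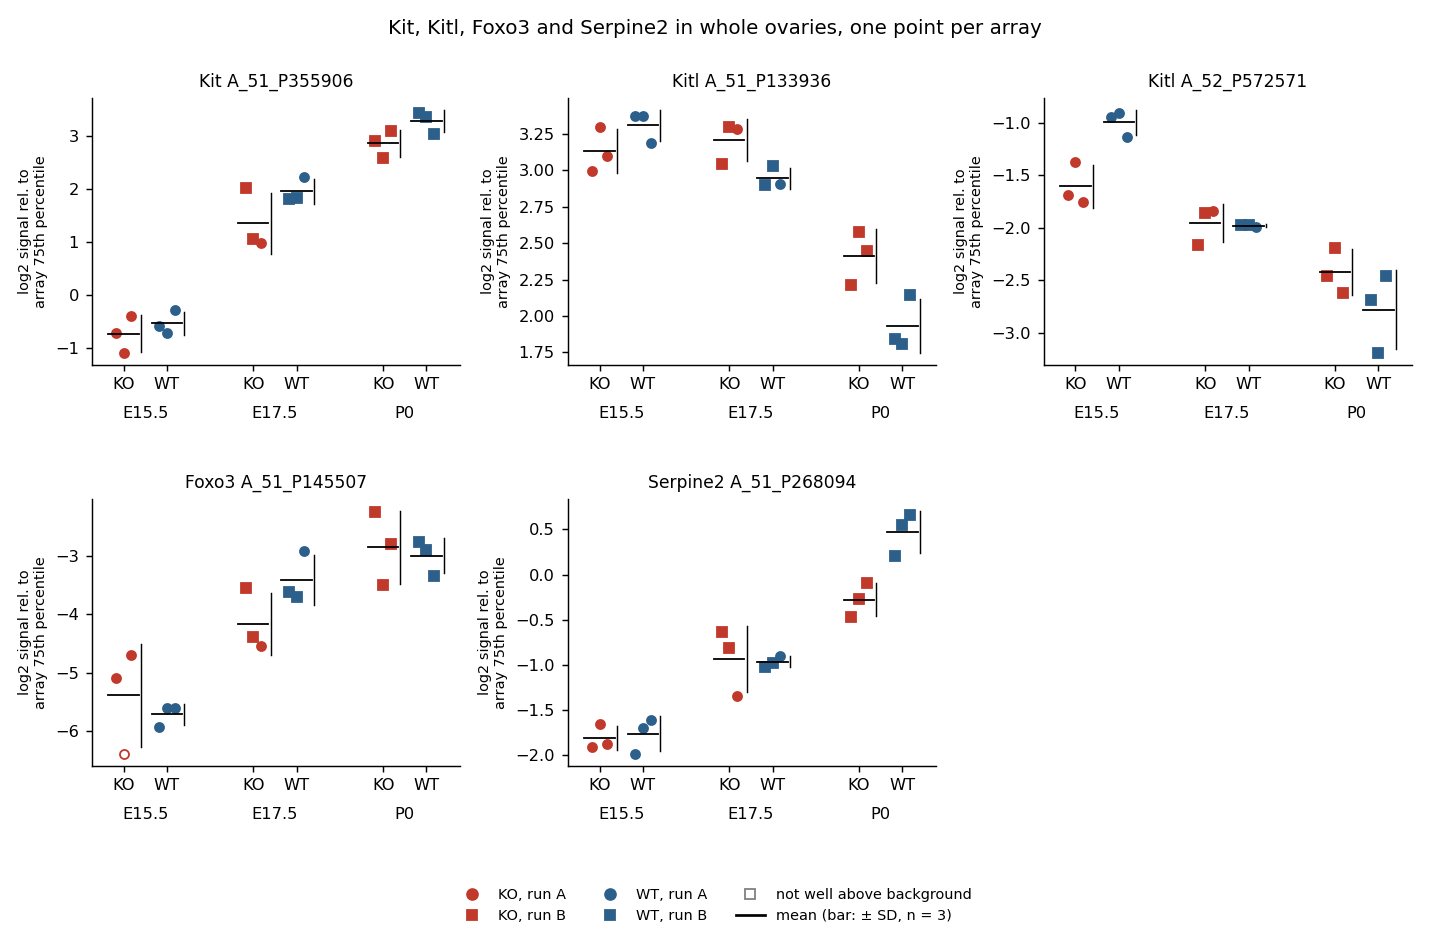
Signal of Kit, both Kitl probes, the brighter Foxo3 probe and Serpine2 (log2 relative to the array's 75th percentile, vertical axes with a separate scale for each probe) by stage and genotype; each point is 1 array, circles are run A and squares run B, lines are means and bars SD (n = 3). Kit, Foxo3 and Serpine2 were higher and Kitl lower at P0 than at E15.5 in KO and in WT, and Serpine2 in P0 KO arrays lay below all P0 WT arrays.

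Pdpk1, whose product is the kinase that phosphorylates AKT, was measured by 3 probes, and 1 of them fell in KO at E17.5. That probe, A_52_P619138, read 1.56, 1.57 and 1.12 in E17.5 KO and 1.89, 1.84 and 1.56 in E17.5 WT arrays. The groups touched, because WT replicate 3 lay at the level of the KO arrays. The fall was -0.35 ± 0.08 (SE, adjusted p = 0.0351).

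Replicates with the same number deviated together at E17.5, where pairing and scan run cannot be told apart. With the replicate number as a block the call on A_52_P619138 was lost (adjusted p = 0.0692). It was lost in 15 of 32 alternatives in all, with an adjusted p between 0.00383 and 0.184. Leaving out any single E17.5 array (-0.38 to -0.30), or E15.5 WT replicate 2 or 3 (-0.35 each), was among them. The other probes gave -0.44 ± 0.12 for A_52_P111397 (95% confidence interval -0.69 to -0.19, adjusted p = 0.0505) and -0.22 ± 0.13 for A_52_P111390 (-0.50 to 0.06), both SE. The value of A_52_P111397 passed the threshold without E15.5 KO replicate 2, P0 WT replicate 1 or P0 KO replicate 2, with either quantile normalization, with the strict filter and with trend and robust moderation (adjusted p 0.0285 to 0.0408 in these 4 settings).

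In KO all 3 Pdpk1 probes fell between E15.5 and E17.5, by 0.70 ± 0.10 (A_52_P619138), 0.90 ± 0.14 (A_52_P111397) and 0.50 ± 0.16 (A_52_P111390, SE). In WT A_52_P111397 was the 1 called for that step, at -0.49 ± 0.14 (SE, adjusted p = 0.0247). Without E17.5 KO replicate 3 the KO step of A_52_P111397 was -0.66 (adjusted p = 0.0606) and that of A_52_P111390 -0.25 (adjusted p = 0.511), and leaving out E15.5 WT replicate 2, E15.5 KO replicate 1 or 3, E17.5 WT replicate 1 or E17.5 KO replicate 2 also ended the call on A_52_P111390 (-0.51 to -0.40). The WT call ended without E15.5 WT replicate 1 or 3 or E17.5 KO or WT replicate 3 (-0.73 to -0.37). Without the run term A_52_P111390 gave -0.01 in KO, and A_52_P111397 gave -0.48 in KO (adjusted p = 0.0869) and -0.08 in WT, and none was called. With the compared groups alone A_52_P111397 gave -1.02 in KO (adjusted p = 0.0503). On every Pdpk1 probe the run A array of E17.5 was the lowest of its group, in KO and in WT. The genotype differences at E15.5 lay between -0.03 and 0.15 and those at P0 between -0.23 and 0.09 over the 3 probes, and none was called. With normexp and quantile normalization A_52_P619138 was called at P0 (-0.33, adjusted p = 0.00146).

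Akt1, the kinase gene downstream of PI3K, kept a narrow range, its group means spanning 0.30 for the brighter probe. That probe, A_51_P237553, read 4.38, 4.53 and 4.47 in P0 KO and 4.05, 4.18 and 4.35 in P0 WT arrays, with every KO array above every WT array. The rise was 0.26 ± 0.09 (SE, 1.20-fold, adjusted p = 0.041). The second probe, A_52_P418014, read -2.42, -2.17 and -2.37 in P0 KO and -2.55, -2.54 and -2.43 in P0 WT arrays, also without overlap, and its difference of 0.19 ± 0.08 (SE) was not called (adjusted p = 0.102).

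The Akt1 call was lost in 14 of 32 alternatives, with an adjusted p between 0.00942 and 0.162. The value was 0.17 with quantile normalization and 0.16 with normexp and quantile normalization. Of single arrays, those of P0 WT replicates 1 and 2, P0 KO replicates 2 and 3, E15.5 WT replicates 2 and 3, E15.5 KO replicate 2 and E17.5 KO replicate 2 each ended it when left out, the value then lying between 0.19 and 0.26. At E15.5 the differences of the 2 probes were -0.04 and 0.08 and at E17.5 0.17 and 0.10, none of them called.

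**Figure D3:**
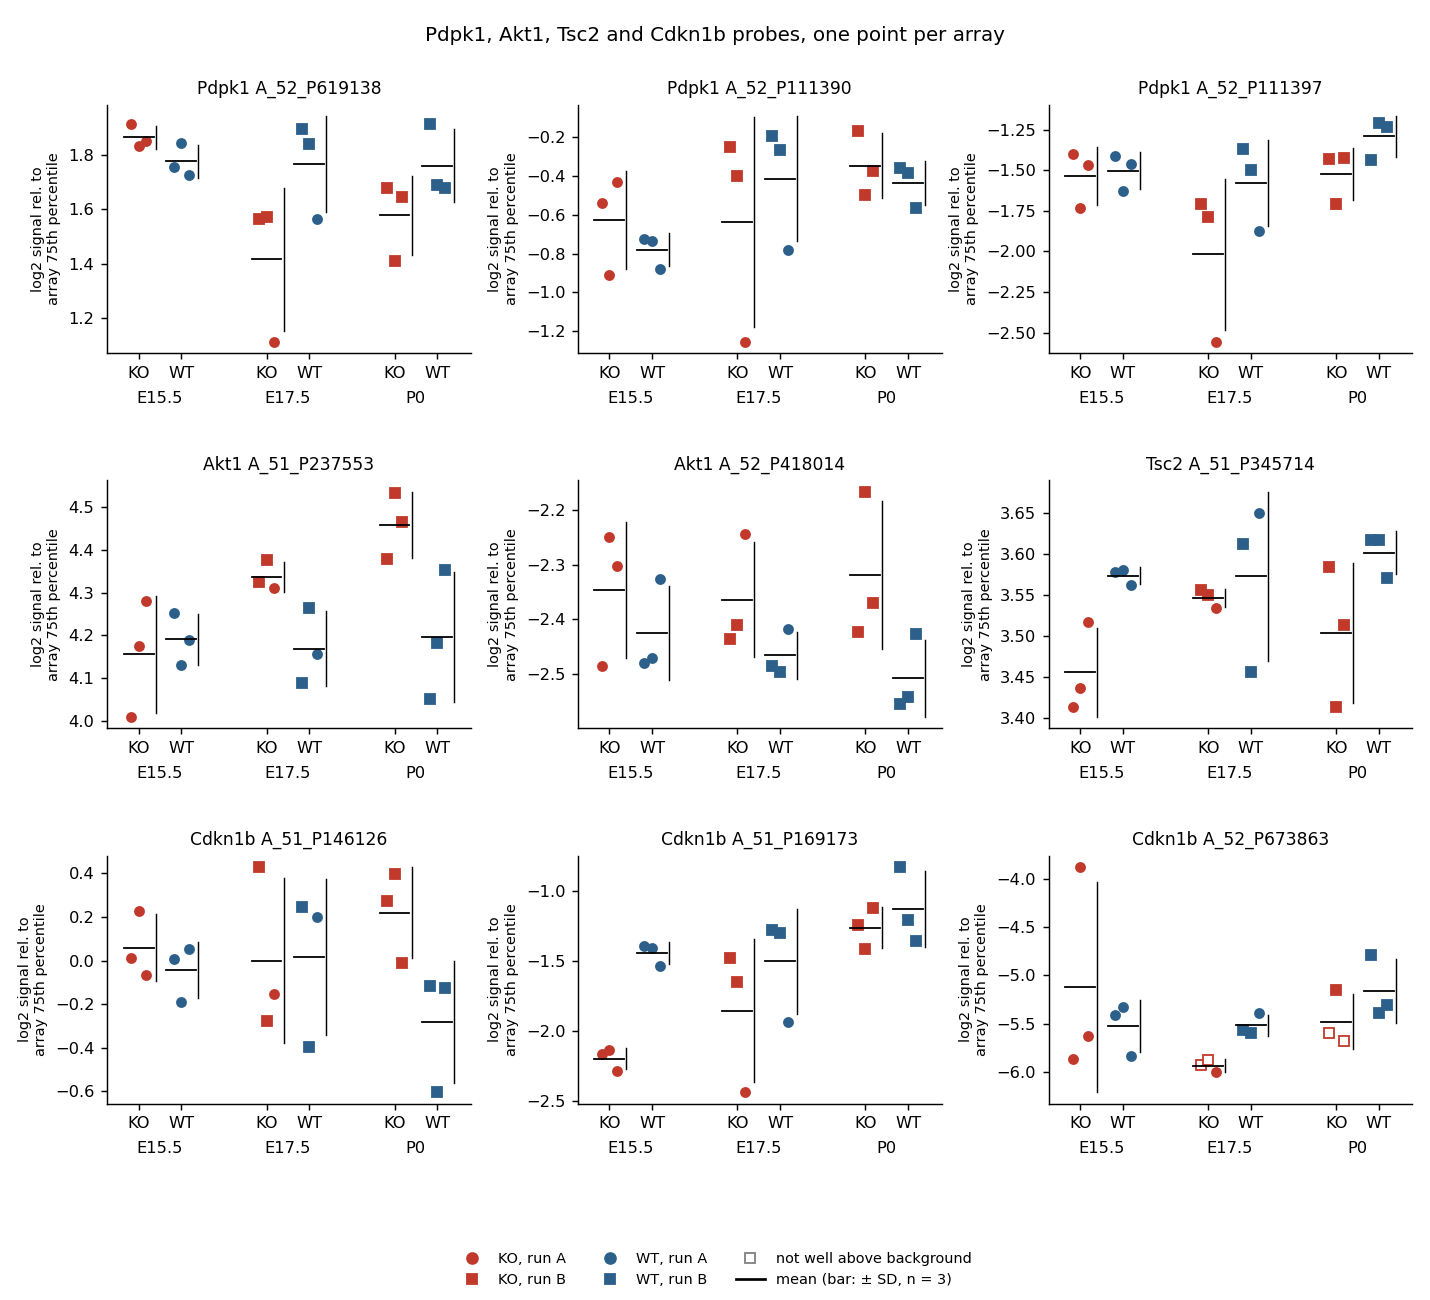
Signal of the 3 Pdpk1, 2 Akt1, 1 Tsc2 and 3 Cdkn1b probes (log2 relative to the array's 75th percentile, vertical axes with a separate scale for each probe) by stage and genotype; each point is 1 array, circles are run A and squares run B, lines are means and bars SD (n = 3). The E17.5 arrays of run A are the lowest of their groups on every Pdpk1 probe, and Cdkn1b A_51_P169173 in E15.5 KO arrays lies below all E15.5 WT arrays.

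Tsc1, which encodes hamartin, showed the largest called differences between genotypes among the 19 probes, on 2 of its 4 probes. Probe A_51_P155018 read 0.83, 0.87 and 0.90 in KO and 0.36, 0.47 and 0.62 in WT at E15.5. At E17.5 it read -0.89, -0.82 and -0.38 in KO and -0.08, 0.02 and 0.31 in WT. At P0 it read -0.61, -1.33 and -0.85 in KO and 0.41, 0.30 and 0.11 in WT. The genotypes did not overlap at any stage, with KO above WT at E15.5 and below it at E17.5 and P0.

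This probe fell in KO at P0 by 1.20 ± 0.14 (SE, 2.30-fold lower, adjusted p = 8.35e-05) and at E17.5 by 0.78 ± 0.14 (SE, 1.72-fold lower, adjusted p = 0.0115). At E15.5 it gave 0.38 (95% confidence interval 0.07 to 0.69), which was not called (adjusted p = 0.217). The neighbouring probe A_52_P267779 gave -1.28 ± 0.15 at P0 (2.43-fold lower, adjusted p = 7.62e-05), -0.69 ± 0.15 at E17.5 (1.61-fold lower, adjusted p = 0.0235) and 0.45 ± 0.15 at E15.5 (adjusted p = 0.163, SE in each case), again without overlap at any stage. The centred group means of these 2 probes differed by 0.073 (root mean square over the 6 groups).

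The P0 falls on both probes stayed past the threshold in every alternative run, the highest adjusted p being 0.00922 on A_51_P155018 and 0.00658 on A_52_P267779. The E17.5 fall on A_51_P155018 missed it without E17.5 WT replicate 3 (-0.82, adjusted p = 0.0564), KO replicate 3 (-0.82, adjusted p = 0.0567) or KO replicate 2 (-0.79, adjusted p = 0.0558), and with the E17.5 arrays alone (adjusted p = 0.105, the highest of a range from 0.00391). On A_52_P267779 it missed it without any single E17.5 array, with values of -0.78 to -0.63, and also without the run term (adjusted p = 0.0583), with array weights (adjusted p = 0.0636) and with the E17.5 arrays alone (adjusted p = 0.105). Within run A the E17.5 difference on A_51_P155018 was -0.70 and within run B -0.82.

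The probe A_52_P19245, which lies 3351 bases downstream of A_51_P155018 on the same strand, did not show these differences. It read 0.07, -0.10 and 0.06 in KO and -0.10, -0.07 and -0.12 in WT at E15.5, -0.08, -0.30 and -0.22 in KO and -0.10, -0.14 and -0.06 in WT at E17.5, and -0.25, -0.26 and -0.17 in KO and -0.29, -0.37 and -0.38 in WT at P0. Its difference at P0 was 0.12 (95% confidence interval -0.03 to 0.28, adjusted p = 0.207), and at E17.5 -0.10 (-0.25 to 0.05). At P0 the interval of this probe and those of the 2 upstream probes (-1.51 to -0.89 and -1.61 to -0.95) did not meet. A_52_P411305, which is annotated to an Ensembl transcript 13583 bases upstream, gave -0.20 (E15.5), -0.52 (E17.5) and 0.15 (P0), none called, with wide intervals (-0.41 to 0.71 at P0).

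A probe of 1700026L06Rik lies downstream on the opposite strand at chr2:28547610-28547669 (mm9), and it averaged -1.35 in P0 KO and -0.96 in P0 WT. The array annotation gives A_51_P155018, A_52_P267779 and A_52_P19245 the same RefSeq transcript, and which Tsc1 transcripts each probe captured was not tested.

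Over time, A_51_P155018 fell between E15.5 and E17.5 in KO by 1.29 ± 0.18 (2.45-fold, adjusted p = 0.00025) and A_52_P267779 by 1.18 ± 0.19 (2.27-fold, adjusted p = 0.000712, SE). The WT steps were -0.13 and -0.04, and neither was called. Between E17.5 and P0 the other probes were the ones called. A_52_P19245 gave -0.24 ± 0.08 in WT (SE, adjusted p = 0.0209). A_52_P411305 was called higher at P0 in KO in the fit used for the other steps. The value with the replicate number as a block, an alternative fit, was 1.05 ± 0.20 (SE, adjusted p = 0.00272), and within run B it was 0.98. The difference between genotypes on A_51_P155018 was itself lower at E17.5 than at E15.5, by 1.16 ± 0.20 (SE, adjusted p = 0.0465). Of the 19 probes this was the 1 called for that contrast, against 0.188% of all probes tested. It did not hold in 23 of 32 alternatives, where adjusted p over all of them ran from 0.0139 to 0.178, the last with the replicate number as a block. Single arrays whose omission ended it were all 3 of E15.5 WT, of E15.5 KO, of E17.5 WT and of P0 WT, E17.5 KO replicates 2 and 3 and P0 KO replicate 3, with values of -1.23 to -1.10. The neighbouring probe gave -1.14 ± 0.22 (SE, adjusted p = 0.0586), and it was called with the strict filter (adjusted p = 0.0487), with trend and robust moderation (adjusted p = 0.0375) and with normexp and quantile normalization (-0.83, adjusted p = 0.0409).

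**Figure D4:**
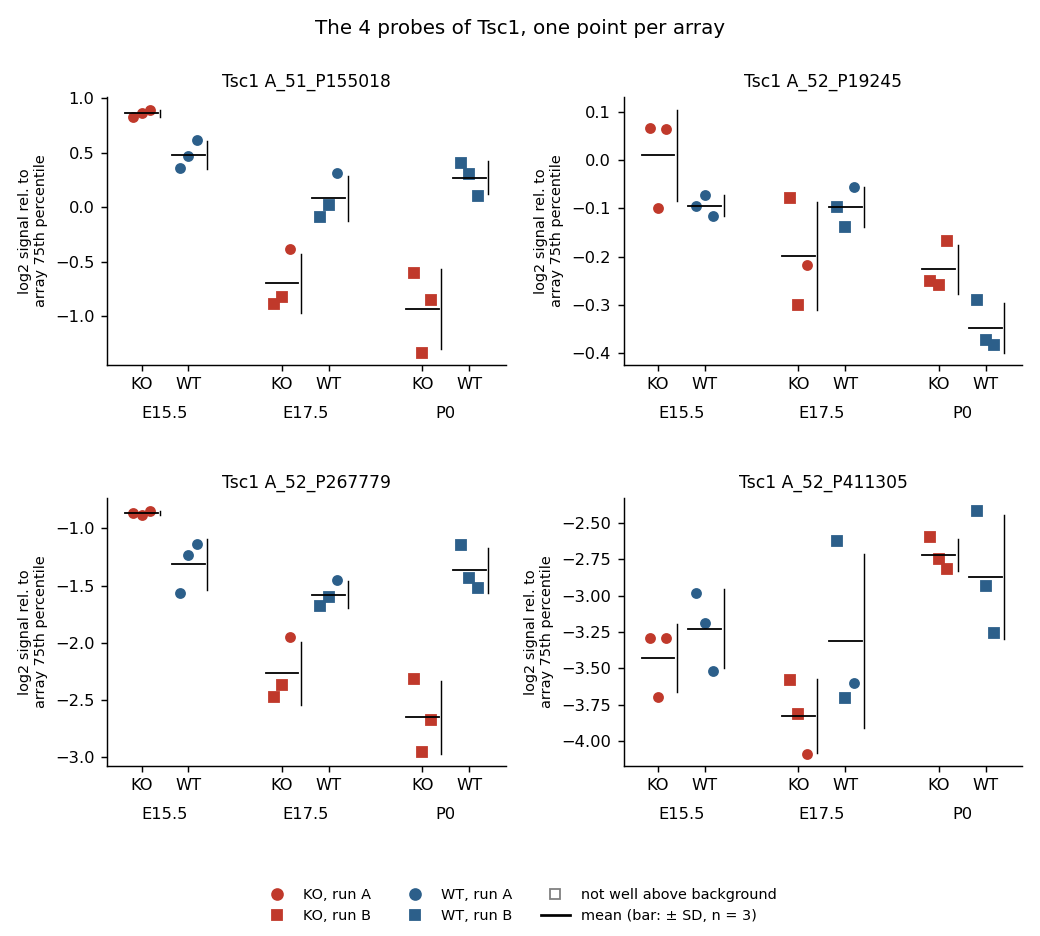
Signal of the 4 Tsc1 probes (log2 relative to the array's 75th percentile, vertical axes with a separate scale for each probe) by stage and genotype; each point is 1 array, circles are run A and squares run B, lines are means and bars SD (n = 3). KO arrays of A_51_P155018 and A_52_P267779 lie above WT at E15.5 and below WT at E17.5 and P0, whereas A_52_P19245 spans 0.36 over its 6 group means.

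Growing oocyte markers, 9 genes of the zona pellucida and other oocyte products, summed to 30.6 to 43.1 in P0 KO and 106.6 to 119 in P0 WT arrays, with 8 of 9 and 9 of 9 well above background on all arrays of the group and Oosp1 on no P0 KO array. At E17.5 the sums were 14.95 to 31.7 in KO and 26.2 to 35.3 in WT, and at E15.5 4.54 to 7.18 in KO and 3.84 to 4.57 in WT. The germ cell markers summed to 154 to 194 in P0 KO and 192 to 199 in P0 WT arrays. That sum rests most on Dppa3, the brightest of the list at P0 (6.18 in KO and 6.56 in WT). Dazl (4.355 in KO and 3.497 in WT), Ddx4 (3.63 and 3.42) and Mael (4.66 and 4.44) averaged higher in P0 KO. Dppa3, Tdrd1, Sycp3, Tex14 and Rnf17 averaged lower. The part of oocyte content in the Tsc1 and Serpine2 results was not tested.

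Tsc2, the partner of Tsc1 (tuberin), hardly varied. Its single probe averaged 3.46 ± 0.05 in KO and 3.57 ± 0.01 in WT at E15.5, 3.55 ± 0.01 in KO and 3.57 ± 0.10 in WT at E17.5, and 3.50 ± 0.09 in KO and 3.60 ± 0.03 in WT at P0 (SD, n = 3 each). Group means spanned 0.15. The differences were -0.12 (95% confidence interval -0.26 to 0.02), -0.03 (-0.17 to 0.11) and -0.10 (-0.24 to 0.04), and none was called. With normexp and quantile normalization the P0 value was -0.19 and was called (adjusted p = 0.0385).

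Foxo3, the forkhead factor that holds oocytes dormant, was dim, and its brighter probe rose with age while the second did not. The brighter probe, A_51_P145507, read -5.10, -6.39 and -4.69 in E15.5 KO and -5.93, -5.62 and -5.61 in E15.5 WT arrays. At E17.5 it read -3.55, -4.39 and -4.54 in KO and -3.62, -3.70 and -2.91 in WT, and at P0 -2.25, -3.50 and -2.80 in KO and -2.76, -2.89 and -3.34 in WT. The genotypes overlapped at each stage, and KO replicate 2 at E15.5 was the 1 of 18 arrays on which the probe was not well above background.

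Its KO and WT differences were 0.33 (95% confidence interval -0.60 to 1.25) at E15.5, -0.75 (-1.68 to 0.18) at E17.5 and 0.15 (-0.78 to 1.07) at P0, so that these data leave a wide range of sizes. In WT the rise came between E15.5 and E17.5 (2.37 ± 0.53, 5.16-fold, adjusted p = 0.00642), and in KO P0 exceeded E17.5 by 1.34 ± 0.46 (2.53-fold, adjusted p = 0.0342, SE). The first KO step was 1.29 ± 0.53 (adjusted p = 0.0953) and the second WT step 0.45 ± 0.46 (adjusted p = 0.455), neither called. Whether the steps themselves differed between genotypes was tested and not called (-1.07, adjusted p = 0.494, and 0.89, adjusted p = 0.373). Without E17.5 WT replicate 3 the WT rise was 1.49 (adjusted p = 0.255). The KO rise to P0 missed the threshold without E17.5 WT replicate 3, E17.5 KO replicate 2 or 3 or P0 KO replicate 1 or 3 (1.04 to 1.31), without a filter (adjusted p = 0.0526) and with the compared groups alone (1.12, adjusted p = 0.125). The first KO step passed it without E15.5 KO replicate 3 (1.64, adjusted p = 0.0363) and without the run term (1.23, adjusted p = 0.0427), and the second WT step with the compared groups alone (0.67, adjusted p = 0.0425).

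The second Foxo3 probe, A_52_P373852, was well above background on 7 of 18 arrays and on none at P0. Its nominal P0 difference of 1.13 (adjusted p = 0.00233) compares signals not well above background in either genotype, and no fold is given for it or for its steps to P0. Those steps were called lower in both genotypes, opposite to the brighter probe. The means went from -5.54 at E17.5 to -6.59 at P0 in KO and from -5.78 to -7.72 in WT. At E15.5 and E17.5 its differences were 0.05 and 0.24, neither called.

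Cdkn1b, which encodes the CDK inhibitor p27, gave the 1 call at E15.5, and its 3 probes did not give the same pattern. A_51_P169173 read -2.17, -2.14 and -2.28 in E15.5 KO and -1.39, -1.40 and -1.53 in E15.5 WT arrays, without overlap. It fell in KO by 0.75 ± 0.12 (SE, 1.69-fold lower, adjusted p = 0.0112). The values at E17.5 and P0 were -0.35 (95% confidence interval -0.61 to -0.09, adjusted p = 0.115, or 0.0492 without P0 WT replicate 1) and -0.13 (-0.39 to 0.13).

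That call was lost in 4 of 31 alternatives at values of -0.75 to -0.73: without the run term (adjusted p = 0.21, the highest of a range from 0.00378), with the E15.5 arrays alone, with the replicate block (adjusted p = 0.0509) and without E15.5 WT replicate 2 (adjusted p = 0.0615). A_51_P146126, 4112 bases downstream, read 0.01, 0.23 and -0.07 in E15.5 KO and 0.01, -0.19 and 0.05 in E15.5 WT arrays, and its difference was 0.10 (-0.36 to 0.57). At P0 it read 0.27, 0.40 and -0.01 in KO and -0.12, -0.60 and -0.13 in WT, without overlap, a difference of 0.50 ± 0.22 (SE) that was not called (adjusted p = 0.0909, or 0.0494 without E17.5 KO replicate 1). The third probe, A_52_P673863, well above background on 14 of 18 arrays, was not called at any stage (0.40, -0.42 and -0.32, SE 0.39 each).

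Serpine2 rose with age in both genotypes and was lower in KO at birth. It read -1.90, -1.66 and -1.87 in KO and -1.98, -1.70 and -1.61 in WT at E15.5, -0.64, -0.81 and -1.34 in KO and -1.02, -0.97 and -0.90 in WT at E17.5, and -0.46, -0.28 and -0.10 in KO and 0.20, 0.55 and 0.65 in WT at P0. Genotypes overlapped at E15.5 and E17.5 and stood apart at P0. The P0 fall was 0.75 ± 0.16 (SE, 1.68-fold lower, adjusted p = 0.00413), and it stayed past the threshold in every alternative (-0.88 to -0.61).

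Between E17.5 and P0 Serpine2 rose by 0.56 ± 0.17 in KO (1.48-fold, adjusted p = 0.0208) and by 1.35 ± 0.17 in WT (2.54-fold, adjusted p = 8.7e-05, SE). The genotype difference at P0 minus that at E17.5 was -0.78 ± 0.23 (SE) and missed the threshold (adjusted p = 0.0522). None of the 19 probes was called for that contrast, against 8.99% of all probes in limma, and 4 of the 19 had an unadjusted p under 0.05. The Serpine2 value passed the threshold without any of 4 arrays: it was -1.02 without E17.5 WT replicate 3 (adjusted p = 0.0222) or E17.5 KO replicate 3 (adjusted p = 0.0223), -0.91 without P0 WT replicate 1 (adjusted p = 0.0359) and -0.87 without P0 KO replicate 3 (adjusted p = 0.0478). It also passed with 1 probe per gene (adjusted p = 0.0483), the strict filter, trend and robust moderation, or normexp and quantile normalization (adjusted p = 0.0164). The KO rise missed it without E17.5 KO replicate 2 (0.59, adjusted p = 0.0641) or P0 KO replicate 3 (0.47, adjusted p = 0.0767), and with the compared groups alone (0.45, adjusted p = 0.0932).

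Around these members, all but 2 of 109 other genes of the pathway with a probe were tested, each by its brightest probe. At E15.5, 0 rose and 0 fell in KO, where 1.81% of 19195 genes were called. At E17.5, 1 rose and 4 fell against 4.38% of all genes, and at P0 28 rose and 15 fell against 33.8%. Of the 19195 genes, 3443 were called higher and 3054 lower in KO at P0. The P0 counts of each list below are to be read against these shares, and several lie near them. The genotype difference at P0 minus that at E17.5 was higher for 8 and lower for 7 of these genes, against 9.62% of all genes called. The lists were put together with earlier results of these data known and are described by counts and medians only. Genes are named below where the P0 call held without any single array, unless it is said otherwise.

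Upstream of PI3K, 6 of 12 growth factor, receptor and adaptor genes rose at P0 and 0 fell (median 0.22, beside -0.00 over all genes). They included the insulin-like growth factor gene Igf2 (0.66 ± 0.11), the receptor gene Pdgfra (0.34 ± 0.08) and the adaptor genes Gab1 (0.33 ± 0.07) and Grb2 (0.28 ± 0.07, SE). Among 13 PI3K subunit and phosphatase genes, 3 rose and 1 fell. The gene that fell was Pik3cd, the catalytic subunit p110-delta, with -0.08 ± 0.08 in P0 KO and 1.97 ± 0.18 in P0 WT (SD, n = 3 each), a difference of -2.06 ± 0.13 (SE, adjusted p = 9.3e-07). Its second probe gave -1.69 at P0, but at E17.5 the 2 probes disagreed in sign (-0.84 and 0.41). Pik3ca, the p110-alpha gene, rose by 0.33 ± 0.06, and Pik3r2, a regulatory subunit gene, by 0.32 ± 0.08 (SE).

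Among 11 genes of the AKT, GSK3, FOXO and SGK list, 3 rose and 3 fell at P0. Foxo6 rose by 0.57 ± 0.10 and Gsk3a, a kinase inhibited by AKT, by 0.27 ± 0.07 (SE). Foxo4 was not well above background on any P0 KO array and was at least 1.57-fold lower than in P0 WT (adjusted p = 0.0132, or 0.0557 without P0 KO replicate 2).

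Of 18 genes of the mTOR complexes and their regulators, 4 rose and 3 fell. Rraga, a Rag GTPase gene, rose by 0.63 ± 0.09 and Ddit4l, a relative of the stress-induced mTOR inhibitor Ddit4, by 0.49 ± 0.12. Deptor, an inhibitor within the mTOR complexes, fell by 0.63 ± 0.14 and Lamtor2, part of the lysosomal anchor of the Rag GTPases, by 0.38 ± 0.09 (SE). Of 10 genes of the S6K and 4E-BP arm 1 rose and 1 fell, and neither call held without each single array. Rps6, a ribosomal protein gene, gave 0.19 (adjusted p = 0.0413), not called without any of 9 arrays (adjusted p up to 0.139), and its other probe gave -2.30. Eif4b, a translation initiation factor gene, gave -0.26 (adjusted p = 0.0308), not called without any of 5 P0 arrays (adjusted p up to 0.0796), and its 3 probes ran from -0.26 to 0.32.

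In the AMPK and LKB1 list 0 of 9 rose and 3 fell at P0. Prkaa2, the AMPK catalytic subunit alpha-2, fell by 1.66 ± 0.18 (adjusted p = 3.93e-05), Prkab2, a regulatory subunit gene, by 0.95 ± 0.11 and Strada, a partner of LKB1, by 0.41 ± 0.08 (SE). Prkaa2 was dim, averaging -5.35 in P0 KO and -3.69 in P0 WT, and in P0 KO it was well above background on 2 arrays only. Scaled by the array median, Strada (-0.27, adjusted p = 0.0596) and Lamtor2 (-0.24, adjusted p = 0.121) were not called. Prkab2 had also fallen at E17.5, by 0.91 ± 0.11 (adjusted p = 0.0032), and both of its probes were called there and at P0.

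Among 13 cell cycle inhibitor and cyclin genes 2 rose and 2 fell. Ccne2 (cyclin E2) rose by 0.89 ± 0.16 and Cdkn1c (p57) by 0.67 ± 0.14, and Skp2, the F-box protein that targets p27, fell by 0.58 ± 0.08 (SE). Of 12 genes known as FOXO targets 6 rose and 1 fell (median 0.28). Fbxo32, a muscle ubiquitin ligase gene also called atrogin-1, rose by 1.53 ± 0.17 (adjusted p = 4.21e-05), Pink1 by 0.72 ± 0.13 and Sesn1 by 0.41 ± 0.08, while Bcl6 fell by 0.44 ± 0.09 (SE). Of 9 serine protease and serpin genes 3 rose, among them Plau (urokinase) by 0.96 ± 0.17, and 1 fell, F2 (prothrombin), by 1.71 ± 0.14 (SE, adjusted p = 6.32e-06).

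When arrays were scaled by their median in place of the 75th percentile, 72.5% of the probes called at P0 were higher in KO, against 50.8% in the scaling used above, and the median over all probes moved to 0.12. Under that scaling 6 of the 19 probes rose and 3 fell, the additional rises being Tsc1 A_52_P19245 (0.26, adjusted p = 0.0282), Cdkn1b A_51_P146126 (0.64, adjusted p = 0.0377) and Akt1 A_52_P418014 (0.33, adjusted p = 0.0259).

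**Figure D5:**
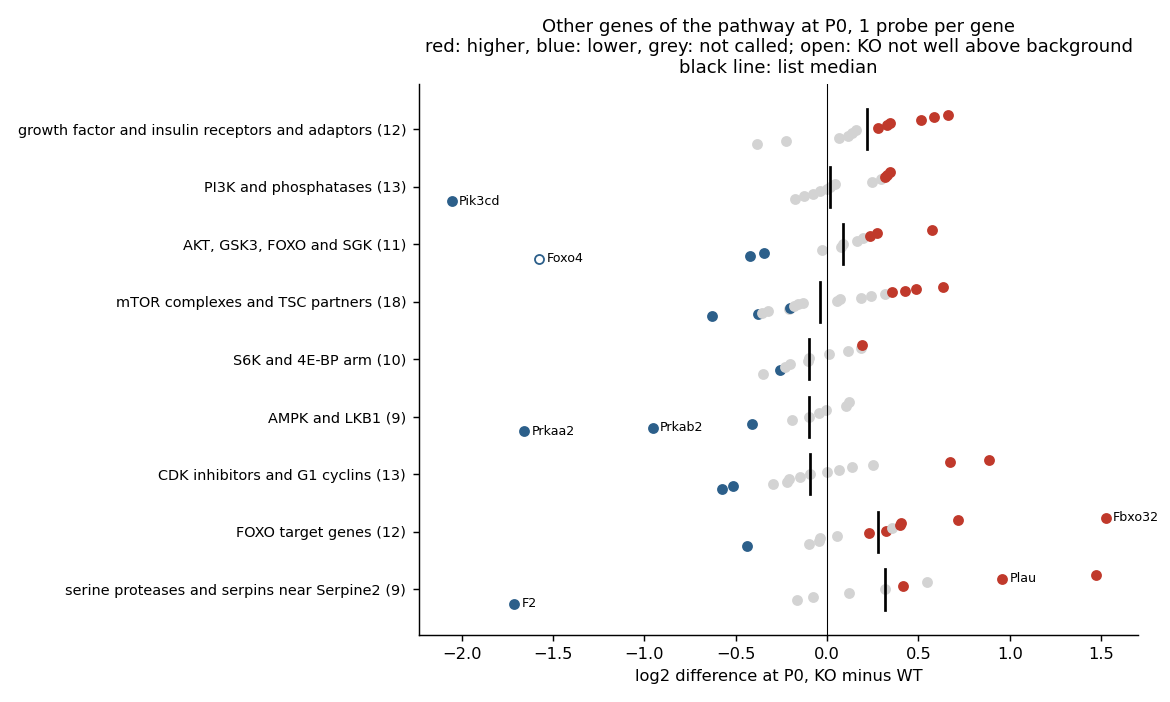
Difference between KO and WT at P0 (log2, horizontal axis) of the other pathway genes tested, by list (rows, with the number of genes); each point is 1 gene, red higher, blue lower and grey not called at an adjusted p under 0.05, and black lines are list medians. Pik3cd, Prkaa2 and F2 lie farthest to the left, and Fbxo32 lies farthest to the right; the open point is Foxo4.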

How the data were processed

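RNA of whole ovaries was hybridised to 1-colour Agilent arrays of design 014868. The deposited intensity values are background-subtracted processed signals of Agilent Feature Extraction (version 10.7.3.1 per the file headers, 9.5 per the submitters' processing notes). The authors' deposited log2 table, compared with the scanner values, differs from their log2 by a constant for each array.

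From the scanner intensities, log2 was taken and the array's 75th percentile subtracted. Outlier spots (51 to 109 per array) were dropped and spots of a probe averaged, and 0 probes were saturated. Probes that were well above background on each of the 3 arrays of some group (29203) entered 1 limma fit (version 3.58.1, R 4.3.3) with 6 groups and the scan run, on 11 residual degrees of freedom. P-values were adjusted by Benjamini-Hochberg over all of them, with a threshold of 0.05. The runs were defined by scan day. Python 3.11.15 and matplotlib 3.10.9 made tables and figures. The fit was tested on simulated data.

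Every probe of the 9 genes is described. Of other pathway genes, represented by the brightest probe, those called may be named. Results of 2 further genes are not reported here. The members and lists were chosen with earlier results of these data known. Labels give the same replicate numbers in every group. Deviations from the group means, taken without the run term, correlated between KO and WT of the same number by 0.153, 0.403 and 0.478 at E17.5. They correlated by 0.165, 0.176 and -0.10 at E15.5 and by 0.145, 0.0771 and 0.0781 at P0. At E17.5 replicate 3 of both genotypes was of run A and replicates 1 and 2 of run B. Pairing of the samples and scan run can therefore not be told apart there. Alternatives were median scaling, quantile normalization, normexp with quantile normalization, other filters, no run term, 1 probe per gene, trend and robust moderation, array weights, slide as a random block, the compared groups alone, the replicate block and leaving out arrays.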

Additional observations from a re-analysis of the deposited data

Results flagged for a closer look

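The difference between KO and WT itself differed between stages, by an interaction term in limma, for 1 probe of the genes described and for a group of other pathway genes. At E17.5 relative to E15.5 it was lower by 1.16 for Tsc1 A_51_P155018 (-1.16, adjusted p = 0.0465) and by the same amount for Pik3cd (-1.16, adjusted p = 0.0348). Both calls ended with the replicate number as a block (adjusted p = 0.178 each), and they were lost in 23 and 19 of 32 alternatives. The Pik3cd value is that of its brightest probe, and at E17.5 its 2 probes disagreed in sign (-0.84 and 0.41).

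At P0 relative to E17.5, the interaction was 0.59 for Sh2b3, 0.45 for Pik3r2, 0.45 for Rraga, 0.92 for Cdkn1c, 0.69 for Pink1, 1.22 for Fbxo32 and 0.93 for Plau, each higher at P0. It was -1.22 for Pik3cd, -0.73 for Deptor, -1.45 for Prkaa2, -0.51 for Cdk6, -0.72 for Skp2, -0.73 for Bcl6 and -1.30 for F2, each lower at P0. Adjusted p lay between 0.00301 (Pik3cd) and 0.0409 (Deptor). With the replicate block the calls on Pik3r2, Rraga, Cdkn1c, Plau and Deptor were lost, while those on Pik3cd, Prkaa2, Bcl6 and F2 stayed past the threshold in every alternative run. Prkaa2 was well above background on 2 P0 KO arrays only. Across all genes, 1 probe each, 9.62% were called for that contrast. For the genotype difference at P0 itself, the 2 Sh2b3 probes disagreed in sign (0.51 on the probe used and -0.60 on the other).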

How the results depend on the processing

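Of 36 called values of the 19 probes, recomputed in up to 32 settings, 985 of 1119 kept their direction and stayed past the threshold, 134 kept the direction only and 0 reversed. Other filters, other moderation and leaving out arrays of other stages do not change the size of a genotype difference. The count of reversals was therefore partly fixed in advance. The 36 values include those of the dim Foxo3 probe A_52_P373852. Of 2045 values of pathway genes 1776 stayed, 268 kept the direction only and 1 reversed: Rps6 A_51_P344734 at P0 was -0.049 with normexp and quantile normalization. At E15.5, the 1 call among the 19 probes became 2 with normexp and quantile normalization, 0 without the run term, with 1 probe per gene, with the groups compared alone or with the replicate block, and 0 to 2 without single arrays. At E17.5, 3 calls became 1 without the run term or with array weights, 0 with the compared groups alone or without both replicates 3, 2 with the replicate block, and 0 to 5 without single arrays. At P0, 6 became 4 with the compared groups alone, 9 with median scaling, 5 with the replicate block and 5 to 7 without single arrays. From E15.5 to E17.5 the WT count of 6 became 3 with 1 probe per gene and 1 to 7 without single arrays, and the KO count of 7 became 4 with 1 probe per gene, 3 with the compared groups alone and 5 to 8 without single arrays. From E17.5 to P0 the WT count of 6 became 3 with 1 probe per gene and 5 to 7 without single arrays, and the KO count of 6 became 3 with the compared groups alone and 3 to 9 without single arrays. For the genotype difference at E17.5 minus that at E15.5, 1 call became 0 with median scaling, quantile normalization, no filter, no run term, array weights, the slide block, the replicate block or without both replicates 3, 3 with normexp and quantile normalization, 2 with the strict filter or trend and robust moderation, and 0 to 2 without single arrays. At P0 minus E17.5, 0 became 1 with normexp and quantile normalization, the strict filter, 1 probe per gene, trend and robust moderation or without both replicates 3, and 0 to 2 without single arrays. Over all probes, the 602 calls at E15.5 became 3, and the 1406 at E17.5 became 1 (5908 at an unadjusted p under 0.05), with the compared groups alone in limma, where fewer arrays entered. The causes of the other changes were not tested. The steps from E15.5 to E17.5 could not be fitted without both E17.5 replicates 3. Dim probes, such as the second Foxo3 probe, limit what can be said of low levels.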

Other observations

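Over the 6 group means, each centred on its own mean, the genes nearest to the brightest probe of each member among 15464 genes were found by root mean square difference in log2, as a description with no test. Nearest to Kit were Cacng5 (0.116), Slc18a2 (0.157) and Kdm1b (0.159), whose distances are small beside a range of 4.01 over the Kit group means. Nearest to Kitl were Smad6 (0.0472) and Bag3 (0.0571), to Foxo3 Nanos1 (0.113) and Prss53 (0.155), and to Serpine2 Ptpn22 (0.0902) and Speer5-ps1 (0.0998). Zfp473 (0.186) was among those nearest to Tsc1. The group means of the brightest probe spanned 0.15 for Tsc2, 0.50 for Cdkn1b, 0.30 for Akt1 and 0.45 for Pdpk1, and the genes nearest to these were Ubtd1, Ptx3, Sidt2 and Palb2 in that order.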
